A study of Mus musculus with 9 samples.

Results

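The type I interferon-stimulated genes described here are 45 mouse genes, of the 55471 genes in the deposited tables, that were listed by symbol as antiviral effectors, nucleic acid sensors, STAT and IRF factors, and GBP and IRG GTPases. All 45 were found in the tables by their Ensembl identifier. They were measured by RNA-seq in 9 primary cultures of articular chondrocytes, the resident cells of joint cartilage, from wild type mice at postnatal day 5. The groups were Control, Ad-OSCAR, in which an adenovirus made the cells express the collagen receptor OSCAR, and Ad-OSCAR + 5-ASA, in which such cells also received 5-aminosalicylic acid, with 3 cultures each. Per the labels, cells were cultured for 3 days, infected for 2 h at 400 MOI (infectious virus units added per cell) and left for 36 h before 5-ASA was added. The study's methods give a higher viral dose and shorter times, and add that all plates were coated with an OSCAR-binding collagen peptide, that no IL-1β was present, that the control cells received the virus Ad-Control, and that 5-ASA was at a micromolar dose. The labels give the 400 MOI for the Control cultures as well, without naming their virus, and the methods name a dose only for Ad-OSCAR. There was no group with 5-ASA and without Ad-OSCAR. The labels do not say whether the cultures of a group came from separate mice, so p-values measure only the spread between these cultures, which may be technical.

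Type I interferons are secreted by cells that sense foreign nucleic acid. They bind the receptor pair IFNAR1 and IFNAR2, whose kinases JAK1 and TYK2 phosphorylate STAT factors, STAT2 among them. Interferon-gamma acts through the gamma-activated site (GAS). STAT2 and IRF9 are parts of the complex ISGF3, which binds the interferon-stimulated response element (ISRE) in the promoters of many interferon-stimulated genes. The products block viral entry, RNA synthesis and translation, or, as IRF7 and the sensors do, amplify the response.

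OSCAR-overexpression was accompanied by a rise in many of these genes, most of them at low levels, and by a fall in the pair that was most highly expressed in Control chondrocytes. Irf7, Zbp1, Ifit1, Mx2, Isg15, Usp18, Trim30a and Rsad2 rose past a log2 fold change of 1.5. Among these, Zbp1, Mx2, Usp18, Trim30a and Rsad2 passed the filter on low counts only through cultures with Ad-OSCAR, so their rise is a description. Samhd1, which breaks down deoxynucleotides and restricts DNA and retroviral replication, fell by 2.34 ± 0.06 on the log2 scale, and Isg20, an exonuclease, fell by 1.23 ± 0.10 (SE here and below, n = 3 cultures a group). With 5-ASA, 8 of the 38 members tested were lower than in Ad-OSCAR cultures, where 7.38% of all genes were. Samhd1 and Isg20 were the 2 that were higher, beside 10.4% of all genes. The count of 8 ranged from 3 to 10 when single cultures were left out. Stat2, Irf7 and Eif2ak2 were lower in every alternative fit, whereas the calls of the other 5 were lost when single cultures were left out. Irf7 and Eif2ak2 overlap other genes, and only Stat2 remained when members that overlap or copy another gene were left out.

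Counts summed to between 19733448 and 28192740 per culture. Of the 45 members, 38 passed the filter on low counts, and the remaining 7 (Oas2, Oas3, Oasl1, Oasl2, Mx1, Iigp1 and Ifi47) had at most 10 counts in any culture. In 6 of the 38, no Control culture lay past the filter's limit of 0.394 CPM (counts scaled by TMM to a common library size). These 6, Zbp1, Oas1a, Mx2, Usp18, Trim30a and Rsad2, passed only through cultures with Ad-OSCAR, with or without 5-ASA. They therefore had to differ from Control, so the counts below and the p-values of these 6 are a description. A call is an adjusted p below 0.05 in edgeR's quasi-likelihood test over 15362 genes. Against Control, 26 of the 38 members rose in Ad-OSCAR cultures, 5 fell and 7 did not pass the test. Over all genes, 32.7% rose and 32.2% fell in that comparison, so calls in either direction were common. The median log2 fold change of the 38 members was 0.565, beside 0.0225 over all genes tested. Among the 30 members that averaged 1 CPM or more in the 9 cultures, 20 rose and 5 fell, with a median of 0.36, beside 34.3% and 34.7% of the 13266 genes at that level. By the study's criteria for OSCAR (log2 fold change past 1.5 in size and adjusted p below 0.05), 8 members rose and 1 fell, beside 4.57% and 5.39% of all genes, and only 3 of the 8 (Irf7, Ifit1 and Isg15) averaged 1 CPM or more.

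**Figure D1:**
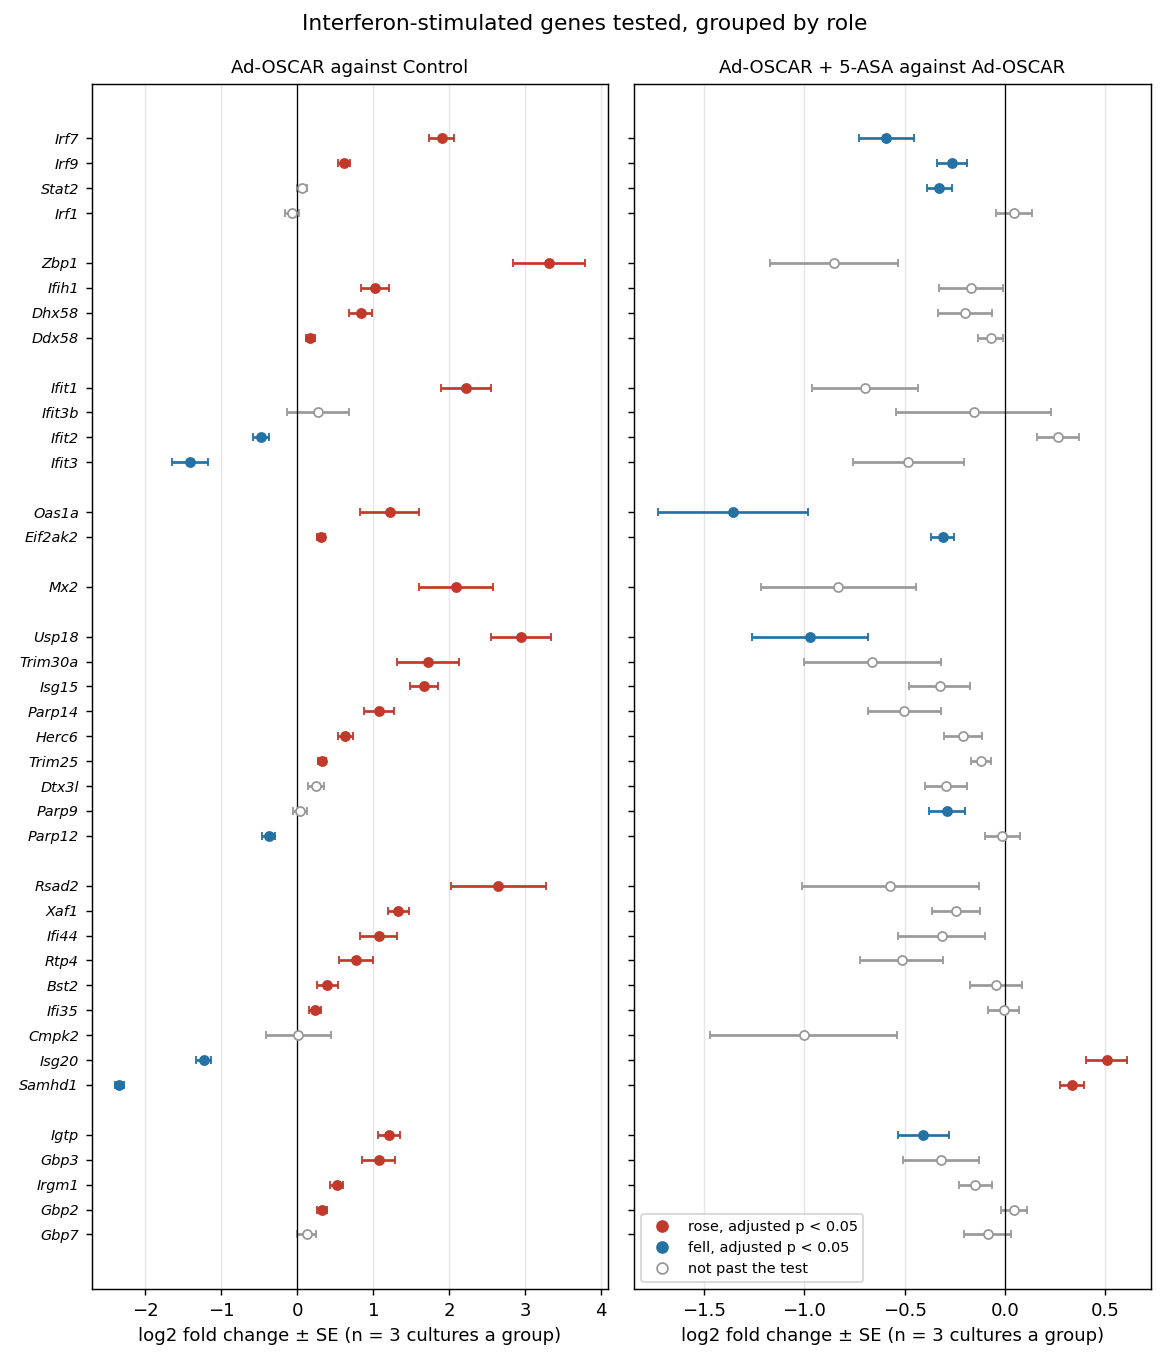
Log2 fold change ± SE of the 38 members tested, grouped by role, for Ad-OSCAR against Control (left) and Ad-OSCAR + 5-ASA against Ad-OSCAR (right, on a narrower axis). Filled points passed an adjusted p below 0.05. On the left 26 points lie to the right of 0 and are filled, and Samhd1 at -2.34 is the lowest; on the right 8 filled points lie below 0 and Samhd1 and Isg20 above it.

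Oscar itself, on chromosome 7 (chr7:3609813-3616157, GRCm38, minus strand), had 0.189, 0.123 and 0.211 CPM in the Control cultures, which is 3 to 4 counts. It had 6349, 7107 and 6524 CPM in the Ad-OSCAR cultures and 3526, 2944 and 3721 CPM with 5-ASA. Thus the labels held, and the level with 5-ASA was lower by 0.97 ± 0.07 on the log2 scale (edgeR adjusted p = 1.8e-08). Any difference of a member between the Ad-OSCAR and Ad-OSCAR + 5-ASA groups therefore came with a difference in the level of Oscar. The part of Oscar in the result was not tested.

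The members were low in these cells. On the length-scaled TPM of the deposited tables, 11 members had a mean over all cultures of at least 10, 17 lay between 1 and 10 and 17 below 1. The highest were Samhd1 with 40.2 TPM, Isg20 with 38.6, the sensor gene Ddx58 with 21.3 and Gbp2 with 21.2. Summed over the 45 members, the level was 345 ± 8.93 TPM in Control, 315 ± 12.6 in Ad-OSCAR and 281 ± 7.99 in Ad-OSCAR + 5-ASA cultures (SD, n = 3). The sum was thus lower in both groups with Ad-OSCAR than in Control, although more members rose than fell. Without Samhd1 and Isg20, the remaining 43 members summed to 205 ± 4.40, 272 ± 15.1 and 227 ± 7.82 TPM. Samhd1 alone went from a mean of 82.0 TPM in Control to 18.3 in Ad-OSCAR cultures.

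In single cultures, the level of Oscar and the shift of the members had the same order between groups and within the 5-ASA group, but not within the Ad-OSCAR group. The median over the 38 members of log2(CPM + 0.1), taken from the mean of the Control cultures, was 0.624, 0.476 and 0.555 in the Ad-OSCAR cultures 1 to 3 and 0.331, 0.254 and 0.340 with 5-ASA. All 3 values with 5-ASA lay below those of the Ad-OSCAR cultures, and the Control cultures lay between -0.0514 and 0.0571. The 38 include the 6 that passed the filter only through cultures with Ad-OSCAR, which favours a higher shift in those groups. Within the Ad-OSCAR group, the culture with the most Oscar (7107 CPM) had the smallest median shift, whereas within the 5-ASA group the culture with the least Oscar (2944 CPM) had the smallest. With 3 cultures in each separate group, no correlation with Oscar was computed.

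**Figure D2:**
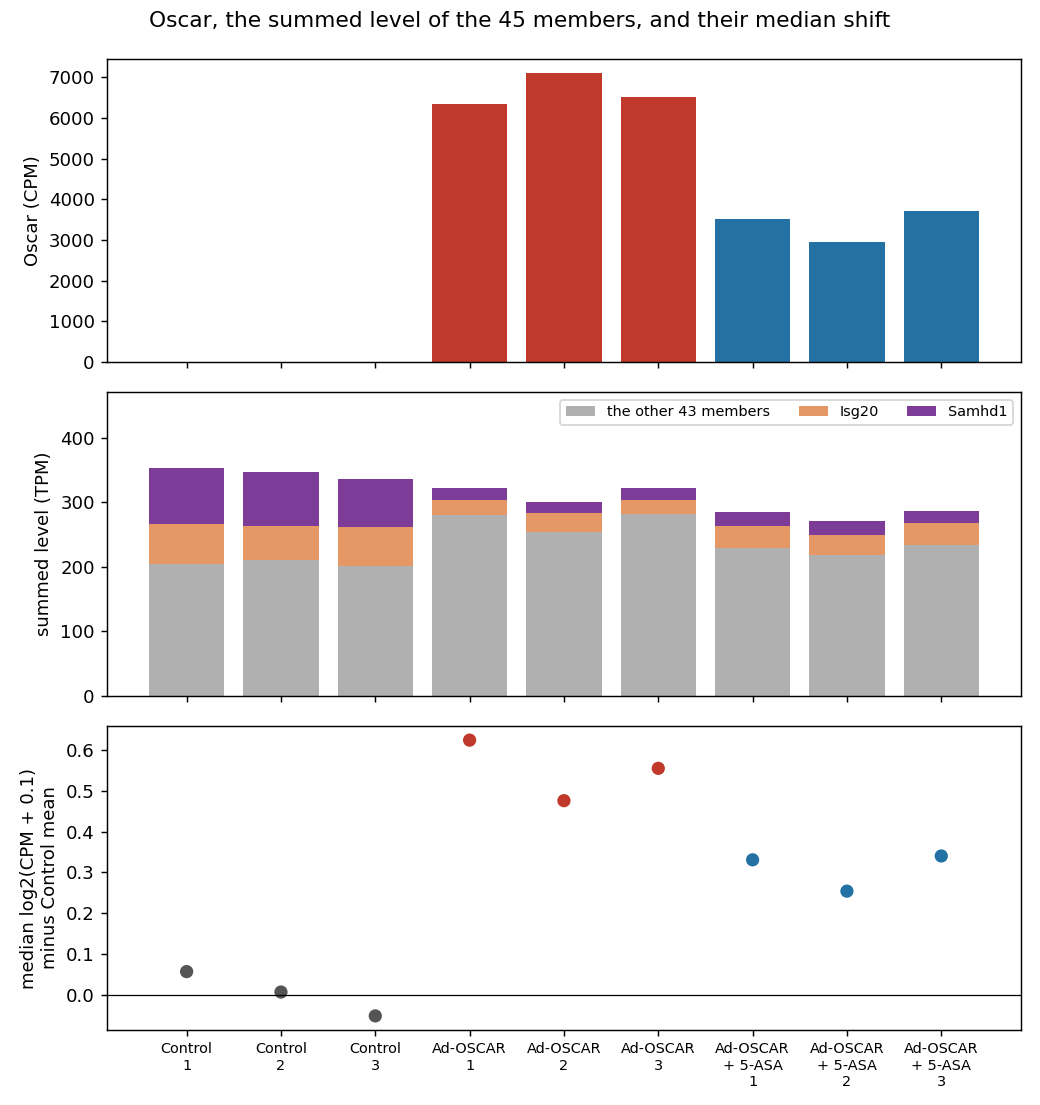
Oscar level in CPM (top), summed level of the 45 members in TPM with Samhd1 and Isg20 set apart (middle), and median shift of the 38 members tested on the log2(CPM + 0.1) scale (bottom), for each of the 9 cultures. The summed level falls from 345 TPM in Control to 281 with 5-ASA, while the median shift is highest in the Ad-OSCAR cultures, at 0.476 to 0.624.

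Among the transcription factors, Irf7, the factor that drives interferon-alpha genes and is itself interferon-induced, had 1.89, 1.52 and 1.95 CPM in Control, 7.05, 5.57 and 7.20 in Ad-OSCAR and 4.77, 3.68 and 4.78 in Ad-OSCAR + 5-ASA cultures. The 3 groups did not overlap. Its log2 fold change was 1.90 ± 0.17 for Ad-OSCAR against Control (edgeR adjusted p = 1.1e-08) and -0.59 ± 0.14 with 5-ASA (adjusted p = 0.0056). Irf9, the DNA-binding part of ISGF3, had 19.5, 18.6 and 15.7 CPM in Control, 27.7, 25.4 and 29.3 in Ad-OSCAR and 21.6, 23.6 and 23.5 with 5-ASA. It rose by 0.61 ± 0.08 and fell by 0.27 ± 0.07 with 5-ASA (edgeR adjusted p = 1.7e-06 and 0.018), and the second call was lost without Ad-OSCAR culture 1 or 3 or 5-ASA culture 1. Stat2, the other partner, did not move past the test with Ad-OSCAR (0.07 ± 0.06). It had 30.9, 28.6 and 30.0 CPM in Ad-OSCAR and 23.8, 22.8 and 24.7 with 5-ASA, which was below both other groups (-0.33 ± 0.06 against Ad-OSCAR and -0.26 ± 0.06 against Control, edgeR adjusted p = 0.0011 and 0.0016). Irf1, a factor of both interferon responses, stayed between 18.2 and 23.0 CPM in all 9 cultures, with log2 fold changes of -0.07 ± 0.09 and 0.05 ± 0.09. Exons of Irf7 overlap Phrf1 on the other strand and those of Irf9 overlap Rnf31 on the same strand, and whether strand was used in counting is not given in the sources used here.

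All 4 sensor genes rose with Ad-OSCAR, by very different sizes. Ddx58 (RIG-I) and Ifih1 (MDA5) encode sensors of viral RNA, Dhx58 (LGP2) their regulator, and Zbp1 a sensor of left-handed nucleic acid that starts necroptosis. Ddx58, with 40.6, 40 and 35.1 CPM in Control and 43.3, 40.9 and 46.3 in Ad-OSCAR cultures, changed by only 0.17 ± 0.06 (edgeR adjusted p = 0.023), and without Control culture 3 or Ad-OSCAR culture 3 it no longer passed. Ifih1 rose by 1.02 ± 0.18 and Dhx58 by 0.83 ± 0.15. Zbp1 had 0.0943, 0.0821 and 0.106 CPM in Control, which is 2 counts in each culture, 0.983, 0.901 and 1.02 in Ad-OSCAR and 0.346, 0.438 and 0.830 with 5-ASA. Its fitted log2 fold change of 3.31 ± 0.47 (edgeR adjusted p = 6.3e-06) was the largest of the members and, at so few Control counts, depends on the small count that the fit adds. Because Zbp1 passed the filter only through cultures with Ad-OSCAR, this value and its p are a description. With 5-ASA no sensor gene passed the test, and Zbp1 came nearest, with -0.85 ± 0.32 (edgeR adjusted p = 0.074), though it passed in 2 of 14 alternatives.

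The IFIT genes, which encode proteins that bind viral RNA and lie side by side on chromosome 19 (chr19:34550694-34650009 from Ifit2 to Ifit1, GRCm38), moved in opposite directions. Ifit1 had 0.472, 0.370 and 0.581 CPM in Control and 2.10, 1.76 and 2.69 in Ad-OSCAR cultures, a rise of 2.22 ± 0.33 (edgeR adjusted p = 1.2e-05). Ifit3 had 2.83, 1.97 and 2.22 CPM in Control and 0.983, 0.861 and 0.763 in Ad-OSCAR cultures, a fall by 1.42 ± 0.23 (adjusted p = 3.5e-05). Ifit2, the most abundant of the 4, went from 14.7, 15 and 13.2 CPM to 10.6, 8.24 and 11.9, and fell by 0.48 ± 0.11 (edgeR adjusted p = 0.00074). Ifit3b, at 0.264 to 0.991 CPM in all cultures, did not pass the test. Ifit3 shares 31.7% of its 100-base stretches with Ifit3b, and Ifit3b 27.4% with Ifit3, so their separate levels are uncertain. With 5-ASA no IFIT gene passed the test, though Ifit1 did in 4 of 15 alternatives and Ifit2 in 2 of 16. Ifit1 had 0.923, 1.09 and 2.05 CPM there, of which the highest lay within the range of the Ad-OSCAR cultures (-0.70 ± 0.27, edgeR adjusted p = 0.081).

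The promoters of Ifit1, which rose, of Ifit3, which fell, and of Ifit3b are shown because all hold the same element. The bases just before the annotated gene are given from the RefSeq promoter table for GRCm38.p6, 5′ to 3′ on the strand of the gene, with the ISRE core (GAAA, any 2 bases, then GAAA), or its other strand, in capitals. They span chr19:34640689-34640870, chr19:34583329-34583528 and chr19:34607757-34607956, all on the plus strand.
Ifit1: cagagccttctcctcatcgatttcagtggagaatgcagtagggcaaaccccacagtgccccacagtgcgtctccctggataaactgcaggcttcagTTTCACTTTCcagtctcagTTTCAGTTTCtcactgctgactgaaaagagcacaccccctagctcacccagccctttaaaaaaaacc
Ifit3: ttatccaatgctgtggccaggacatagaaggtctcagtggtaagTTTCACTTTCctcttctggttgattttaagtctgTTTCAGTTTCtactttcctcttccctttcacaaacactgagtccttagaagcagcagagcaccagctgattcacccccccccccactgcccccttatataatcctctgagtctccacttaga
Ifit3b: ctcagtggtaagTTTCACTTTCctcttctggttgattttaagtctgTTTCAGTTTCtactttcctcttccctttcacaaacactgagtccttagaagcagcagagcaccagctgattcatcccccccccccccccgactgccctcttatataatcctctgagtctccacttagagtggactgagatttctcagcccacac
Each holds 2 cores with the letters TTTCACTTTC and TTTCAGTTTC, which begin 104 and 85 bases before the RefSeq start of Ifit1, 156 and 122 before that of Ifit3, and 188 and 154 before that of Ifit3b. The Ifit3 and Ifit3b stretches share a run of 119 identical bases. The presence of the cores did not separate the gene that rose from the one that fell.

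Over the members, 35 had at least 1 promoter in that table (250 bases before to 50 after the start), and the ISRE core was found in 18 of them (51.4%), beside 3.99% of the 27025 genes with a promoter there. The GAS motif TTCNNNGAA, also searched on both strands and free to overlap the ISRE, was found in 10 members (28.6%) and in 9.55% of genes. The members were listed as interferon-stimulated genes, so this share is not independent of how they were chosen. Of the members with a promoter, the ISRE core was in 13 of the 20 that rose with Ad-OSCAR, 3 of the 6 not past the test, 1 of the 5 that fell (Ifit3) and 1 of the 4 not tested. The 7 that rose without the core in this window were Irf7, Irf9, Herc6, Trim25, Xaf1, Ifi35 and Ifi44. Zbp1, Parp9, Iigp1, Dhx58, Rtp4, Usp18, Parp14, Oas2, Mx2 and Mx1 had no entry.

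**Figure D3:**
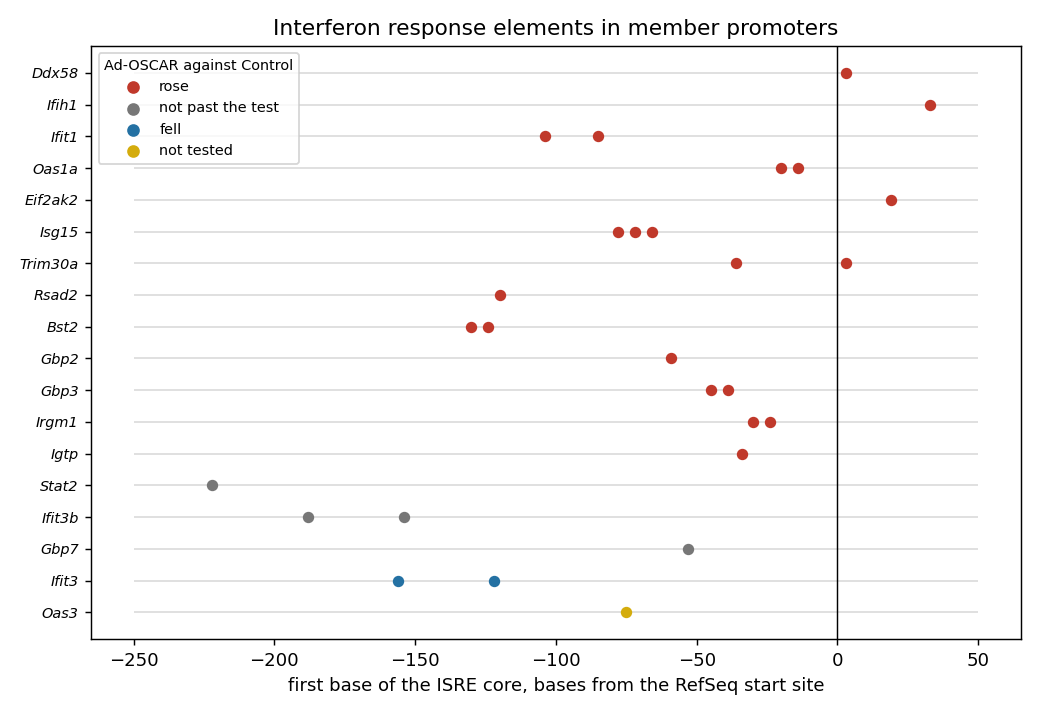
Position of each ISRE core, as bases from the RefSeq start site to its first base, in the 18 members that hold one; grey lines span the window searched. Colours give the call for Ad-OSCAR against Control. The cores of Isg15 begin 78, 72 and 66 bases before the start, and those of Ifit3 at 156 and 122 lie in a gene that fell.

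ISG15 is a ubiquitin-like protein, and USP18 the protease that removes it from its targets and also blocks the interferon receptor. The 200 bases before Isg15 (chr4:156200819-156201018, GRCm38.p6, minus strand) are shown because 3 ISRE cores overlap in them, again in capitals.
Isg15: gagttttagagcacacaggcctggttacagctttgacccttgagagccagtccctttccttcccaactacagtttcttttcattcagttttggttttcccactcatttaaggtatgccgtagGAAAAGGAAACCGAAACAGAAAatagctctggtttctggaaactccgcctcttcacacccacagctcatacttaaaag
Isg15 had 1.18, 0.945 and 1.06 CPM in Control, 3.29, 3.11 and 3.71 in Ad-OSCAR and 2.85, 2.73 and 2.49 with 5-ASA. It rose by 1.67 ± 0.18 (edgeR adjusted p = 2.4e-07), and although the 5-ASA cultures all lay below the Ad-OSCAR ones, the difference of -0.33 ± 0.15 did not pass the test (adjusted p = 0.155). Usp18 had 0.236, 0.0821 and 0.264 CPM in Control, 1.83, 1.06 and 1.49 in Ad-OSCAR and 0.577, 0.839 and 0.830 with 5-ASA. Its change was 2.95 ± 0.40 with Ad-OSCAR and -0.97 ± 0.29 with 5-ASA (edgeR adjusted p = 3.2e-06 and 0.027). The second call was lost without Ad-OSCAR culture 1 or 3 or without any one 5-ASA culture, and DESeq2 gave no adjusted p for it. Trim30a, a feedback inhibitor of NF-kB signalling, had 0.236, 0.246 and 0.159 CPM in Control, 0.508, 0.656 and 1.02 in Ad-OSCAR and 0.538, 0.401 and 0.434 with 5-ASA (1.72 ± 0.41 and -0.66 ± 0.34, edgeR adjusted p = 0.0013 and 0.203). The ligase genes Herc6 (0.63 ± 0.10) and Trim25 (0.33 ± 0.05), the latter needed for RIG-I signalling, also rose, as did Parp14, an ADP-ribosyltransferase (1.07 ± 0.20). Its neighbours on chromosome 16, Dtx3l and Parp9, whose products form a complex and whose exons overlap on opposite strands, did not pass the test with Ad-OSCAR (0.24 ± 0.11 and 0.03 ± 0.09). With 5-ASA Parp9 had 9.11, 11.2 and 10.1 CPM after 12.6, 11.9 and 12.7 in Ad-OSCAR cultures (-0.29 ± 0.09, edgeR adjusted p = 0.032), and this call was lost by DESeq2 and without Ad-OSCAR culture 1 or 3 or 5-ASA culture 1 or 3. Parp12 fell with Ad-OSCAR by 0.38 ± 0.08.

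Among the enzymes that respond to double-stranded RNA, Eif2ak2 (PKR, which halts translation) was well expressed, and the OAS genes, whose products activate RNase L, were barely so. Eif2ak2 had 31.8, 34.4 and 30.7 CPM in Control, 39.3, 38.8 and 42.3 in Ad-OSCAR and 31.3, 33.9 and 31.9 with 5-ASA. It rose by 0.31 ± 0.06 and fell by the same 0.31 ± 0.06 with 5-ASA (edgeR adjusted p = 0.00012 and 0.00075), so that treated and Control cultures overlapped (0.00 ± 0.06 between them). Exons of Eif2ak2 overlap Gm26637 and n-R5s29 on the other strand. Oas1a had 0.377, 0.329 and 0.211 CPM in Control, 0.746, 0.738 and 0.691 in Ad-OSCAR and 0.269, 0.146 and 0.434 with 5-ASA (1.22 ± 0.39 and -1.36 ± 0.38, edgeR adjusted p = 0.010 and 0.017). It shares 40.9% of its 100-base stretches with Oas1g, and the 5-ASA call was lost without Ad-OSCAR culture 1 or 5-ASA culture 1 or 2. For that call DESeq2 gave no adjusted p. The Mx genes encode GTPases that block influenza and related viruses, and the reference strain carries Mx2 as a polymorphic pseudogene in the annotation. Mx2 had 0.0943, 0.123 and 0.211 CPM in Control, 0.712, 0.492 and 0.618 in Ad-OSCAR and 0.423, 0.438 and 0.158 with 5-ASA (2.09 ± 0.48 and -0.83 ± 0.39, edgeR adjusted p = 0.00101 and 0.155). Mx1 had 2 counts in 1 culture and none in the others.

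Among the remaining effectors, Samhd1 and Isg20 fell. Samhd1 (chr2:157097533-157135265, GRCm38, minus strand) had 129, 126 and 117 CPM in Control, 23.7, 24.7 and 25 in Ad-OSCAR and 30.8, 32.8 and 29.1 with 5-ASA, and the 3 groups did not overlap. The fall by 2.34 ± 0.06 with Ad-OSCAR and the difference of 0.34 ± 0.06 with 5-ASA (edgeR adjusted p = 1.02e-16 and 0.00059) passed the test under every alternative tried. Isg20 (chr7:78913424-78920396, plus strand) had 32.4, 27.9 and 31.0 CPM in Control, 11.8, 15.8 and 11.4 in Ad-OSCAR and 19.6, 17.1 and 18.5 with 5-ASA. It too passed in both comparisons under every alternative (-1.23 ± 0.10 and 0.51 ± 0.10, edgeR adjusted p = 3.2e-09 and 0.0017). Rsad2 (viperin, which makes a chain-terminating nucleotide) had 0.141, 0 and 0.106 CPM in Control, 0.610, 0.369 and 0.545 in Ad-OSCAR and 0.384, 0.182 and 0.474 with 5-ASA, and its fitted change with Ad-OSCAR was 2.65 ± 0.63 (edgeR adjusted p = 0.0012). Cmpk2, which lies beside it on chromosome 12 and supplies the nucleotide it uses, did not follow it (0.01 ± 0.43 with Ad-OSCAR). The difference between these neighbours was not tested. Xaf1, a proapoptotic gene, rose by 1.33 ± 0.14, Ifi44 by 1.07 ± 0.25, Rtp4 by 0.78 ± 0.22, Bst2 (tetherin, which holds budding virus at the membrane) by 0.39 ± 0.14, and Ifi35 by 0.23 ± 0.08.

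The GBP and IRG GTPases attack the vacuoles of intracellular microbes and are induced most by interferon-gamma. Gbp2 had 23.2, 28.8 and 24.4 CPM in Control, 32.8, 32.0 and 31.1 in Ad-OSCAR and 34.0, 31.6 and 33.4 with 5-ASA, a rise of 0.32 ± 0.07 (edgeR adjusted p = 0.00050) that did not move past the test with 5-ASA (0.04 ± 0.07). Of its neighbours on chromosome 3, Gbp3 rose by 1.07 ± 0.21 and Gbp7 did not pass (0.12 ± 0.12), and the difference between them was not tested. Igtp had 2.17, 2.67 and 2.06 CPM in Control, 5.59, 4.92 and 5.53 in Ad-OSCAR and 4.08, 3.79 and 4.27 with 5-ASA, with no overlap between groups (1.21 ± 0.14 and -0.41 ± 0.13, edgeR adjusted p = 5.9e-07 and 0.032). The 5-ASA call of Igtp was lost by DESeq2, with a block for replicate number, and without Ad-OSCAR culture 1 or 3 or 5-ASA culture 1 or 2. Further, 5.67% of its 100-base stretches are shared with Irgm2, whose exons it overlaps. Irgm1 rose by 0.52 ± 0.09.

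**Figure D4:**
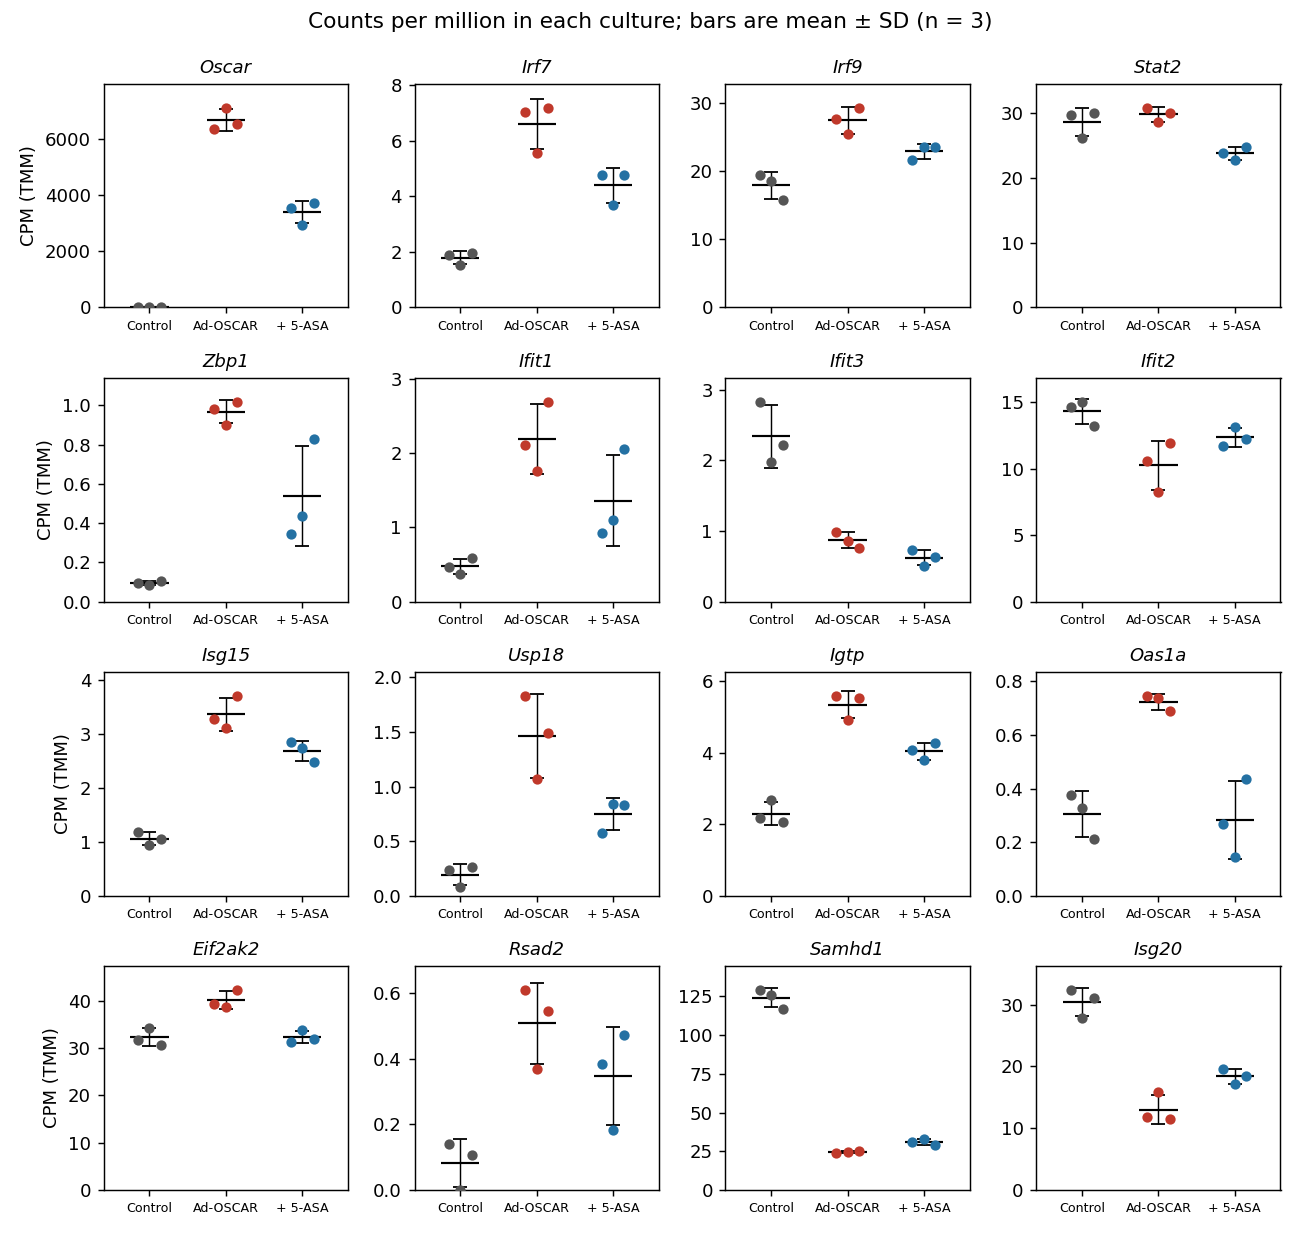
TMM-scaled CPM of Oscar and 15 members in each culture, with mean and SD of 3 cultures, each panel on its own axis from 0. Samhd1 drops from 117 to 129 CPM in Control to 23.7 to 25 in Ad-OSCAR cultures, whereas Irf7, Isg15 and Usp18 rise from levels at or below 1.95 CPM.

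5-ASA was the second question of the design. In Ad-OSCAR + 5-ASA against Ad-OSCAR cultures, 8 of the 38 members fell (Stat2, Irf7, Irf9, Oas1a, Eif2ak2, Usp18, Parp9 and Igtp), 2 rose and 28 did not pass, beside 7.38% and 10.4% of all genes that fell and rose. The median log2 fold change of the members was -0.291, beside -0.00435 over all genes. Among members that averaged 1 CPM or more, 6 of 30 fell and 2 rose, with 8.25% and 11.9% of genes at that level. The count of 8 was 3 without Ad-OSCAR culture 1 or 5-ASA culture 1, 4 without Ad-OSCAR culture 3, 5 without 5-ASA culture 2, and 4 by DESeq2. It was 15 with scaling to total counts, and 1 of 20 (Stat2) when members that overlap or copy another gene were left out. The limits that the study set for 5-ASA (1.5-fold and an unadjusted p below 0.05) are worded in its methods for a comparison with Ad-Control cells. Applied here to Ad-OSCAR + 5-ASA against Ad-OSCAR, they were passed by 7 members that fell and 0 that rose, beside 1.87% and 2.27% of genes. Without Ad-OSCAR culture 3 or 5-ASA culture 2 the 7 were 3, and without Ad-OSCAR culture 2 the 0 were 1. The 7 were Irf7, Zbp1, Ifit1, Oas1a, Mx2, Usp18 and Cmpk2, of which 3 had an adjusted p below 0.05. Zbp1, Oas1a and Mx2 had all cultures past the filter's limit in the Ad-OSCAR group alone, so the filter favoured their fall. Since all these differences are taken from the same Ad-OSCAR cultures as the rises above, the comparisons are not independent of each other.

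Compared to Control, the treated cultures still differed. In Ad-OSCAR + 5-ASA against Control, 21 of the 38 members were higher and 6 lower, with 31.4% and 31.8% of all genes, and the median was 0.348. By the same limits, 14 were higher and 3 lower, beside 14.6% and 15.3% of genes. Irf7 remained higher by 1.31 ± 0.17, Isg15 by 1.34 ± 0.19 and Usp18 by 1.97 ± 0.44, and Samhd1 remained lower by 2.01 ± 0.06 on the log2 scale (edgeR adjusted p = 3.3e-06, 6.1e-06, 0.00077 and 7.3e-16). Ifit3 was lower by 1.90 ± 0.25, and Mx2 (1.26 ± 0.54), Oas1a (-0.14 ± 0.46) and Irf1 (-0.02 ± 0.09) did not pass the test. Mx2 lay close to the limit (edgeR adjusted p = 0.0502) and passed in 3 of 14 alternatives.

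The interferon genes themselves were close to absent. Of 20 interferon ligand genes, 17 had no count in any culture, Ifnb1 among them, and the 3 others (Ifna2, Ifnab and Ifne) had 6 counts in all 9 cultures together. A count of 0 allows up to 3 counts per culture, or 0.102 to 0.159 CPM, for counting error only, so interferon transcripts below that level were not detectable at this depth. The receptor side was well expressed and 7 of the 9 receptor and kinase genes rose with Ad-OSCAR (77.8%, beside 32.7% of all genes). Like the other lists, this one was chosen with earlier results of these data known. Ifnar1 had 80.0, 83.9 and 81.0 CPM in Control and 119, 118 and 122 in Ad-OSCAR cultures (0.55 ± 0.04, edgeR adjusted p = 4.9e-09), and Ifnar2 had 60.5, 65.1 and 64.0 and then 127, 132 and 123 (1.01 ± 0.05, adjusted p = 2.6e-12). With 5-ASA Ifnar2 was higher still, by 0.19 ± 0.05, a call lost with scaling to total counts, and Ifnar1 did not pass the test (-0.11 ± 0.04). The receptor chains Ifngr2 (1.06 ± 0.04) and Il10rb (1.18 ± 0.05) and the kinase gene Tyk2 (0.82 ± 0.06) rose as well.

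Of the 15 genes of the sensing adaptors, kinases and IRFs, 12 were tested, and 5 rose and 3 fell with Ad-OSCAR (41.7% and 25%, near the 32.7% and 32.2% of all genes). Ikbke, a kinase that activates IRF3 and IRF7, rose by 1.65 ± 0.06 from 39.6, 38.6 and 41.2 to 126, 128 and 119 CPM, its relative Tbk1 by 0.39 ± 0.07 and Irf5 by 1.93 ± 0.29. Cgas, the sensor of cytosolic DNA, fell by 0.74 ± 0.21, though not past the test without Control culture 2. Of the 10 negative regulators, 4 rose and 3 fell, which is also near the share over all genes. Nlrc5, listed there for its role in restraining interferon signalling and otherwise known as the activator of MHC class I genes, had 3.11, 4.85 and 4.38 CPM in Control, 36.8, 34.9 and 38.8 in Ad-OSCAR and 23.8, 21.6 and 24.2 with 5-ASA (3.15 ± 0.10 and -0.67 ± 0.08, edgeR adjusted p = 8.6e-15 and 7.85e-06). Ptpn6 (1.58 ± 0.29) and Ptpn2 (0.81 ± 0.06), phosphatases of the JAK-STAT pathway, and Adar (0.77 ± 0.06), the RNA editor that keeps self RNA from the sensors, also rose.

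A list of 59 further interferon-stimulated genes was also chosen with earlier results of these data known, so its shares are a description. Of these genes, 44 were tested, of which 33 rose and 3 fell with Ad-OSCAR (75% and 6.82%, beside 32.7% and 32.2% of all genes). With 5-ASA 13 fell and 4 rose (29.5% and 9.09%, beside 7.38% and 10.4%). Their median log2 fold change with Ad-OSCAR was 0.743, against 0.565 for the members. The largest changes were in chemokines and a Schlafen gene. Ccl5 had 1.51, 1.60 and 1.37 CPM in Control, 35.1, 43.8 and 32.4 in Ad-OSCAR and 67.4, 65.6 and 68.9 with 5-ASA, so it was highest in treated cultures (4.62 ± 0.14 and 0.86 ± 0.08, edgeR adjusted p = 2.5e-15 and 3.6e-07). Cxcl10 had 0.896, 1.19 and 0.423 CPM, then 10.0, 10.6 and 10.0, and 7.27, 7.51 and 7.43 with 5-ASA (3.55 ± 0.17 and -0.46 ± 0.12, edgeR adjusted p = 2.8e-12 and 0.0089). Cxcl9 (3.70 ± 0.60) and Slfn2 (2.86 ± 0.37) rose from at most 0.377 CPM in Control. Not all interferon-stimulated genes therefore followed one order across the groups.

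**Figure D5:**
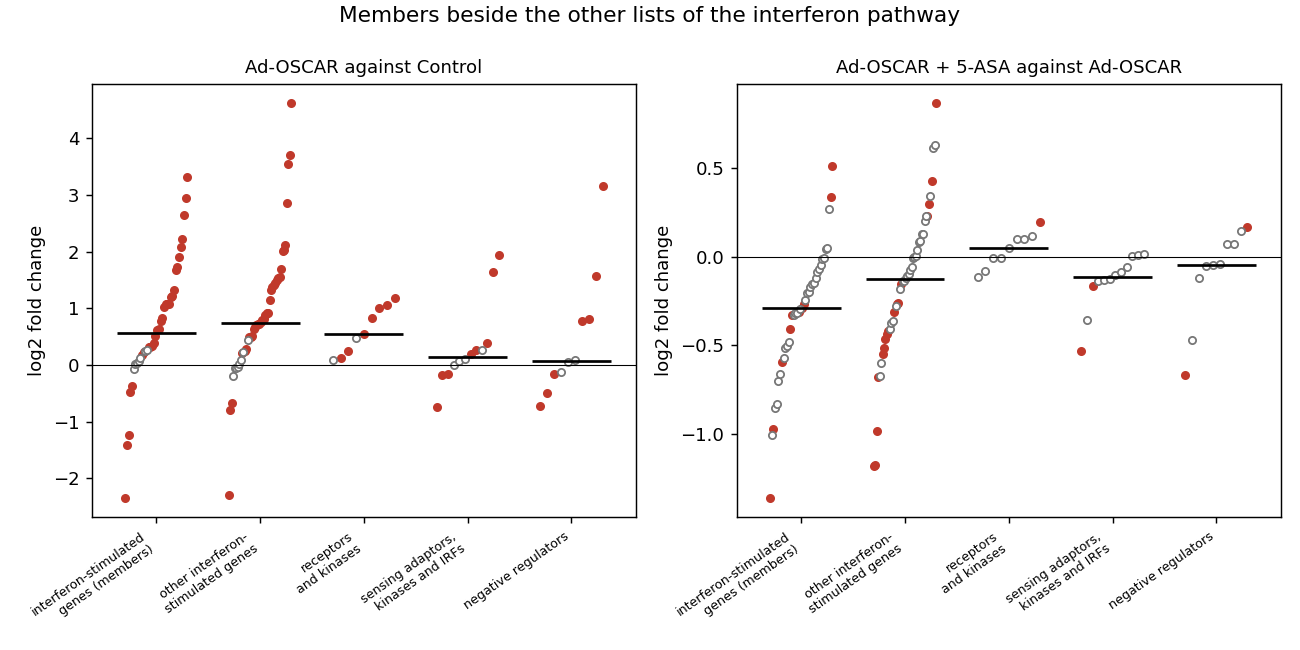
Log2 fold changes of the members and of 4 further lists, each gene a point sorted within its list, with the median as a bar; red points passed an adjusted p below 0.05. The medians with Ad-OSCAR (left) are 0.565 for the members, 0.743 for the other interferon-stimulated genes and 0.549 for the receptors and kinases, and with 5-ASA (right) -0.291, -0.129 and 0.046.

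Markers of other cells that make or answer interferon were set beside these values. In bulk RNA, fewer cells of a type and less RNA per cell cannot be told apart. Of the 9 lymphocyte markers, none was tested, Cd3e, Cd3d, Ms4a1 and Ncr1 had no count, and the summed level was 0.106 to 0.411 CPM in Control and 0.291 to 0.610 in Ad-OSCAR cultures. The 10 macrophage and myeloid markers summed to 17.5 to 20.4 CPM in Control, 36.8 to 37.3 in Ad-OSCAR and 30.5 to 31.9 with 5-ASA. There Cd68, Cd14 and Lyz2 rose and Mrc1 fell, while the defining markers Ptprc, Adgre1, Itgam and Cx3cr1 had at most 3 counts in any culture. The 6 endothelial markers summed to 0.581 to 1.23, 4.51 to 5.53 and 2.23 to 2.73 CPM, where Tek and Vwf rose and Cdh5 had at most 2 counts. The 6 plasmacytoid dendritic cell markers summed to 164.5 to 176 CPM in Control, 163.7 to 169 in Ad-OSCAR and 188.1 to 197.5 with 5-ASA. Nearly all of it was Tcf4, and Siglech had 1 count in 1 culture. Of the 2 tested, 1 rose with Ad-OSCAR, past the study's criteria, and 1 rose with 5-ASA. Both were higher with 5-ASA than in Control. The 8 fibroblast and synovial lining markers were split with Ad-OSCAR, with 4 that rose and 4 that fell, and with 5-ASA 5 rose and 2 fell. The 10 chondrocyte markers, which include Col2a1, Acan and Sox9, were abundant in Control and all fell with Ad-OSCAR (median log2 fold change -4.81). With 5-ASA 5 of these 10 rose and 0 fell (median 0.254), beside 10.4% and 7.38% of all genes. The part of the myeloid, endothelial, plasmacytoid dendritic cell, fibroblast and chondrocyte markers that moved with the groups in the results above was not tested.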

How the data were processed

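Poly(A) RNA of 9 chondrocyte cultures was sequenced by the authors as stranded 2 × 100 base reads, trimmed with BBDuk, aligned with STAR 2.7.1a to GRCm38 and counted with RSEM 1.3.1, which divides reads between similar genes. The authors deposited, per gene and culture, the RSEM expected counts, still unscaled, and TPM, which RSEM scales to transcript length and library. Here the expected counts were rounded to whole numbers and tested, and TPM served only to compare levels between genes. The study used DESeq2 for its own comparisons.

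Groups were taken from the sample labels. Total counts ranged from 19733448 to 28192740, and chi-square statistics between replicates (4.03 to 7.52 per degree of freedom) showed no repeated library. In R 4.3.3, edgeR 4.0.16 fitted the 9 cultures by group (TMM normalization, filterByExpr, quasi-likelihood F test with 6 residual degrees of freedom, Benjamini-Hochberg adjustment over 15362 genes). Standard errors are the absolute log2 fold change over the square root of F. CPM are TMM-scaled. Symbols, positions and overlaps are from GENCODE M21 on GRCm38 (55144 of 55471 identifiers found), and promoters from RefSeq. Reads that genes can share were judged from 100-base stretches of their transcripts. The test was checked on simulated counts.

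The members and all gene lists were chosen with earlier results of these data known. Members named with values for every culture are those past the study's OSCAR criteria, the 4 largest and 4 smallest log2 fold changes among those called, those called with 5-ASA (at most 10), the 4 highest by TPM, and Stat2, Irf1, Irf7 and Irf9. In other lists they are Ifnar1, Ifnar2, Ifnb1 and at most 4 called genes with the largest change, and 1 listed gene is not reported here. Alternatives were RLE normalization, total counts, DESeq2 1.42.0, no filter, a minimum of 10 counts per culture, a fit of 2 groups at a time, a block for replicate number, each culture left out in turn, a shorter ISRE motif, and members that overlap other genes left out. A minimum mean of 1 CPM was added after the data had been seen. Figures were made with matplotlib 3.10.9.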

Additional observations from a re-analysis of the deposited data

How the results depend on the processing

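The count of members that rose with Ad-OSCAR stayed at 24 to 27 when each culture was left out, and was 14 of the 20 tested members that overlap or copy no other gene. By the study's criteria it was 2 with at least 10 counts in every culture and 3 at a mean of 1 CPM, and 1 to 2 members fell when each culture was left out. The median log2 fold change was 0.691 with total counts, which shifted the median of all genes to 0.149, 0.34 with at least 10 counts, 0.77 without overlapping genes and 0.36 at 1 CPM.

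With 5-ASA the count that fell was 15 with total counts, where the median of all genes was -0.075, 4 by DESeq2, 1 without overlapping genes (Stat2 kept its call) and 3 to 10 when each culture was left out. By the limits the study set for 5-ASA it was 3 by DESeq2, 1 with at least 10 counts, 4 without overlapping genes, 2 at 1 CPM and 3 to 7 when each culture was left out, and 0 to 1 rose. The median was -0.362 with total counts and -0.209 with at least 10 counts. Against Control, 12 members were higher without overlapping genes, by those limits 8 with at least 10 counts and 9 at 1 CPM, and the median was 0.404 with total counts, 0.272 with at least 10 counts and 0.56 without overlapping genes. Where no value shows the cause of such a change, the cause was not tested.

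Same-numbered cultures did not deviate together (correlations of -0.0724 to 0.0402), so the numbers do not pair them. With the replicate number as a block, 26 members rose and 5 fell with Ad-OSCAR, 8 fell with 5-ASA, and 4 fell by those limits in place of 7. The block ended the 5-ASA call of Igtp and made one for Ifit1. Among single named genes, no direction that passed the test was reversed, 49 calls were lost and 18 gained over all alternatives, and 1754 results were on the same side of the threshold. DESeq2 gave no adjusted p in 7 further cases. Genes below about 1 CPM rest on few counts, and their fold changes are the least certain.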
